A study of Mus musculus with 24 samples.

Results

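The genes described here encode the folding and quality control apparatus of the endoplasmic reticulum (ER), together with the sensors that adjust it in the unfolded protein response. The set was given as a list of 32 gene symbols, all of which were found among the 55487 genes of the deposited count table. The rule names genes and uses no measured value, but the list was drawn up with earlier results of these data known. By role they fell into 9 chaperones and cochaperones, 6 proteins of the calnexin cycle and disulfide isomerases, 4 sensors and regulators, 9 components of ER-associated degradation (ERAD) and 4 proteins of translocation into the ER. Counts were found for 31 members. *Derl3*, which encodes a derlin of ERAD, had 0 counts in each of the 24 libraries, where a floor of 3 counts corresponds to 0.267 to 0.556 CPM, that is, counts scaled to library size, so its expression was not detectable at this depth.

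Secreted and membrane proteins fold in the ER with the help of chaperones, and hepatocytes, which secrete most plasma proteins, depend heavily on this capacity. When unfolded proteins accumulate, IRE1 (encoded by *Ern1*) splices the *Xbp1* mRNA into the message of an active transcription factor, ATF6 is cut in the Golgi to release another, and PERK slows translation and raises ATF4. Saturated fatty acids such as palmitate are a common trigger of this response in cultured hepatocytes. Gene counts do not separate spliced from unspliced *Xbp1*, and they do not show cleavage of ATF6 or phosphorylation of IRE1 or PERK.

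The libraries were made by BRB-seq, in which bulk RNA of each sample is barcoded and the 3′ ends of mRNAs are sequenced, so levels are compared between libraries and not between genes. AML-12 is an established mouse hepatocyte line derived from animals transgenic for human TGF-alpha, here kept in medium with charcoal-treated serum and without dexamethasone. Each of 6 groups held 4 of the 24 libraries, and the labels do not say whether the libraries of a group came from separate cultures, so p-values measure the spread between these libraries only. The comparisons addressed the effect of palmitate, used as a model of steatosis, and the effects of silencing *Bmal1*, a core clock activator, and *Chrebp*, a glucose-responsive lipogenic factor, alone and together.

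BSA cells received albumin carrier without palmitate, PAL cells received 0.25 mM palmitate, and neither was transfected. CON, BMAL1, CHREBP and BOTH cells received 0.25 mM palmitate and were collected 24 hours after transfection with esiRNA, a pool of short RNAs that silence a gene. The pool targeted *Egfp* in CON at 200 nM, and the single-silenced groups BMAL1 and CHREBP had 100 nM each, directed at *Bmal1* and at *Chrebp*. In BOTH these pools were combined to 200 nM. Total dose therefore matched between CON and BOTH and between BMAL1 and CHREBP, and differed in every other comparison of these groups. The interaction, which sets BOTH and CON against BMAL1 and CHREBP, is also the contrast of 200 nM with 100 nM, so it cannot be told apart from dose. The library names place BSA and PAL under number 01, CON and BMAL1 under 02, and CHREBP and BOTH under 03, with letters A to D for BSA, CON and CHREBP and E to H for the others. Position in that scheme and treatment cannot be told apart.

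A library held between 5399700 and 11237474 gene counts. Of 10 hepatocyte markers, 9 had a mean of at least 5 normalised counts and *Cps1* did not. Their sum was 51299 to 63771 per library, in which most counts were of *Krt18* and *Krt8*, keratins that other epithelial cells also make (24817 to 37278 and 10363 to 15043). Among the secreted-protein genes, *Trf* ran from 5077 to 10213, *Apoe* from 1695 to 3861, *Ttr* from 1055 to 1968, *Alb* from 89.4 to 273, *Fgb* from 8.11 to 64.8 and *Apoa1* from 2.21 to 14.1. In contrast, fibroblast, macrophage and endothelial markers did not exceed 28.0, 29.8 and 4.72, and *Col3a1*, *Pdgfrb*, *Adgre1*, *Clec4f*, *Kdr* and *Cdh5* were at 0 throughout. The libraries of BOTH differed most among themselves, with a chi-square per degree of freedom of 12.4 to 23.1 for the pairs with replicate 4 and 5.77 to 11.7 for the others, against 2.70 to 7.53 in the other groups. *Arntl*, the symbol for *Bmal1*, fell in BOTH against CON (log2 fold change -0.98 ± 0.28 SE, DESeq2 *Padj* = 0.00994), and *Mlxipl*, the symbol for *Chrebp*, also fell there (-1.07 ± 0.30, *Padj* = 0.00762). In the single-silenced groups neither target was called, with *Arntl* at -0.78 ± 0.28 in BMAL1, where DESeq2 gave an unadjusted p of 0.00496 and no *Padj*, and *Mlxipl* at -0.46 ± 0.28 in CHREBP (*Padj* = 0.593). The likelihood ratio test of DESeq2 over the 4 esiRNA groups called both (*Padj* = 0.0255 for *Arntl* and 0.0191 for *Mlxipl*). The paper reports that both genes were silenced, from its transcriptome data and from quantitative PCR, which is not part of the counts used here. The 32 members together took 0.436% to 0.479% of the gene counts of a library, with group means of 0.454% ± 0.016 (SD, n = 4) in BSA, 0.455% ± 0.016 in PAL and 0.471% ± 0.004 in CON. The means were 0.457% ± 0.0035 in BMAL1, 0.456% ± 0.0155 in CHREBP and 0.450% ± 0.0124 in BOTH.

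Many genes of this response carry an ER stress response element (ERSE) in the promoter, which NF-Y and ATF6 or XBP1 bind. RefSeq promoters (GRCm38.p6, 250 bases before to 50 after the start site) were at hand for 27 members. *Hyou1*, *Manf*, *Atf6*, *Derl1* and *Sec61a1* had no entry. The ERSE letters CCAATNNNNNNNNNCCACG, searched on both strands, were in the promoters of 9 of the 27 members and of 37 of all 27025 genes (0.137%). They were *Hspa5*, *Hsp90b1*, *Dnajc3*, *Creld2*, *Calr*, *Canx*, *Pdia6*, *Syvn1* and *Derl3*. The shorter ERSE-II, ATTGGNCCACG, was in *Dnajb11* and *Herpud1* and in 12 of all genes (0.044%), and shares its CCACG with ERSE. The XBP1-binding core TGACGTGG was in none of the 27 and in 0.714% of all genes. The E-box CACGTG, a site for clock factors, was in *Dnajb9*, *Calr*, *Derl3* and *Ssr1*, or 4 of 27, and in 8.09% of all genes, and overlapped no ERSE in *Calr* or *Derl3*. The 250 bases before the start site are shown for the 5 members on which the results below turn most, 5′ to 3′ on the strand of the gene, with ERSE or ERSE-II matches in capitals. *Xbp1* is shown because its promoter in this window held neither motif.
Hspa5, chr2:34771840-34772089, plus strand: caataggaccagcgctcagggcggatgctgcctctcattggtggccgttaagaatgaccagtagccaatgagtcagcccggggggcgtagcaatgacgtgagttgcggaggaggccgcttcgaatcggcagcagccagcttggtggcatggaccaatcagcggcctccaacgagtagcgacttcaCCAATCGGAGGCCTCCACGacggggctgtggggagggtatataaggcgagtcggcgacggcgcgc
Hsp90b1, chr10:86705445-86705694, minus strand: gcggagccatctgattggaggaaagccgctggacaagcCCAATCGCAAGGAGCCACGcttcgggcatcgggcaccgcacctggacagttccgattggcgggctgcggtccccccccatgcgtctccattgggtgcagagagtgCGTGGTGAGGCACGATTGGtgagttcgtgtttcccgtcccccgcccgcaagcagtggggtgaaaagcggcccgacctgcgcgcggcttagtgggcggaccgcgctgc
Herpud1, chr8:94386179-94386428, plus strand: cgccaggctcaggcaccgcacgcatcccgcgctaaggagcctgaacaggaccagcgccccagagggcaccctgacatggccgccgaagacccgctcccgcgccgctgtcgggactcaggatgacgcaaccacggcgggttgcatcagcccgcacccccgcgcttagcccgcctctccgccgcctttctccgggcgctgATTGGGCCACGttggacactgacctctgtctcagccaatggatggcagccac
Syvn1, chr19:6046326-6046575, plus strand: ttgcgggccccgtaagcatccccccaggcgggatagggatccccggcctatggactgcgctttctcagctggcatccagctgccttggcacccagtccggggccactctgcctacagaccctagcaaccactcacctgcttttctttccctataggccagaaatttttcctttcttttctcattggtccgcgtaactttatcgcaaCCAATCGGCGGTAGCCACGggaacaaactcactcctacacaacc
Xbp1, chr11:5520391-5520640, plus strand: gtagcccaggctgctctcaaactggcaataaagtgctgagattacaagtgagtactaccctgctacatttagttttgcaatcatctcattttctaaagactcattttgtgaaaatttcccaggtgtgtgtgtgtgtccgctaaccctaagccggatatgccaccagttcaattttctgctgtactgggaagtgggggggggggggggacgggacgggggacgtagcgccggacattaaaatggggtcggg

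Palmitate without transfection came with differences in both directions within the set. Against BSA, DESeq2 called *Xbp1*, *Wfs1* and *Herpud1* lower and *Hsp90b1*, *Ssr1* and *Ssr3* higher in PAL. That is 9.68% of the 31 tested members in each direction, where 6.65% of all 12827 genes tested were called higher and 7.60% lower at an adjusted p (*Padj*) under 0.1. The median log2 fold change of the members was 0.07, and that of all genes tested was 0.00. In bulk libraries, fewer cells of a type and less RNA per cell cannot be told apart. Of the 9 tested hepatocyte markers, *Krt8* and *Krt18* rose and 5 fell (*Alb*, *Apoe*, *Trf*, *Fgb* and *Ttr*) in the same comparison, and their part in these results was not tested.

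*Xbp1* (ENSMUSG00000020484, chr11:5520659-5525893, plus strand, GENCODE M21 on GRCm38) encodes the transcription factor of the IRE1 branch. Its normalised counts were 2841, 3042, 2971 and 3105 in BSA and 1980.2, 2408, 2025 and 2035 in PAL. Every PAL library lay below every BSA library. The log2 fold change was -0.49 ± 0.067 (SE, DESeq2 *Padj* = 1.68e-11), a level 29.0% lower. *Xbp1* ran from 1980.2 to 2559 in all 20 libraries that received palmitate, all below the lowest BSA library. The transfected groups were not tested against BSA, from which they differ by transfection as well as palmitate. Among these, CON held 2282, 2168, 2352 and 2200.4, BMAL1 2034, 2202, 2328 and 2101, CHREBP 2137, 2283, 2210.5 and 2268, and BOTH 2559, 2053, 2117 and 2211. The groups with palmitate overlapped one another, and fold changes of *Xbp1* between them stayed between -0.05 in BMAL1 against CON and 0.09 in CON against PAL, none of them called.

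*Wfs1* (ENSMUSG00000039474, chr5:36966104-36989205, minus strand) encodes wolframin, an ER membrane protein that restrains ATF6 signalling. It held 146, 139, 176 and 140.1 normalised counts in BSA and 100.3, 106, 122 and 116 in PAL, without overlap. The log2 fold change was -0.43 ± 0.15 (DESeq2 *Padj* = 0.0407). The call was lost when BSA replicate 3, PAL replicate 1 or PAL replicate 2 was left out (*Padj* = 0.114 to 0.198).

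*Herpud1* (ENSMUSG00000031770, chr8:94386438-94395377, plus strand) encodes a membrane scaffold of ERAD and is among the genes most strongly induced by ER stress. It held 612, 509.6, 804 and 707 normalised counts in BSA and 469, 438, 494 and 566 in PAL. The groups overlapped because the lowest BSA library lay below the highest PAL library. The log2 fold change was -0.41 ± 0.12 (DESeq2 *Padj* = 0.00788), and the call held without any single library.

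The remaining sensors and regulators were lower in PAL on average without passing the threshold. *Atf6* (ENSMUSG00000026663, chr1:170704674-170867771, minus strand) held 302, 251, 294 and 253 normalised counts in BSA and 179.5, 207, 226 and 271 in PAL (log2 fold change -0.30 ± 0.13, DESeq2 *Padj* = 0.122). The groups overlapped in 1 PAL library, replicate 4, without which *Padj* was 0.0255, and in a fit of all 24 libraries it was 0.0917. *Ern1* (ENSMUSG00000020715, chr11:106394650-106487852, minus strand) held 148, 170.2, 149 and 132 in BSA and 125, 104, 145 and 148 in PAL (-0.19 ± 0.15, *Padj* = 0.522), and its 95% interval reached from -0.49 to 0.11. All 4 genes of this group thus had negative fold changes, with 2 of them called.

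Among the 9 chaperones and cochaperones and the 6 members of the calnexin cycle and disulfide isomerases, 1 gene was called, *Hsp90b1*. *Hspa5* (ENSMUSG00000026864, chr2:34771970-34777547, plus strand) encodes BiP, the main ER HSP70 chaperone and the usual gauge of ER stress. It held 2332, 2432, 2547 and 2560.5 normalised counts in BSA and 2301, 2532, 2799 and 2313 in PAL. The groups overlapped, and the log2 fold change of 0.02 ± 0.068 (DESeq2 *Padj* = 0.931) had a 95% interval of -0.12 to 0.15. *Hsp90b1*, which encodes the ER HSP90 chaperone GRP94, ran from 3011 to 3211 in BSA and from 3196 to 3768 in PAL (0.16 ± 0.059, *Padj* = 0.066). Its call was lost without BSA replicate 1 or 2 or PAL replicate 2, 3 or 4 (*Padj* = 0.103 to 0.281).

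Fold changes were above 0 for 8 of the 9 chaperones and cochaperones, with a median of 0.16. The exception was *Dnajb9*, which encodes the BiP cochaperone ERdj4 and is a textbook XBP1 target. Its PAL libraries lay below all BSA libraries (243 to 284 against 301 to 323), but *Padj* was 0.101 in DESeq2 (-0.25 ± 0.10), and it was 0.0915 in edgeR. All 6 members of the calnexin cycle and disulfide isomerases had fold changes above 0 with a median of 0.13, and none was called. In this role 1 gene, *Pdia3*, had an unadjusted p under 0.05, and edgeR called none either.

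Translocation held the other rises. *Ssr1* and *Ssr3* encode the alpha and gamma subunits of the translocon-associated protein complex, which helps nascent chains enter the ER. *Ssr3* ran from 1899.6 to 2093 in BSA and from 2226 to 2409 in PAL, without overlap (0.21 ± 0.058, DESeq2 *Padj* = 0.0048), and kept its call without any single library. *Ssr1* ran from 964 to 1072 in BSA and from 1058 to 1242 in PAL (0.19 ± 0.071, *Padj* = 0.0656), with the call lost without BSA replicate 1, 2 or 3 or PAL replicate 1 or 3 (*Padj* = 0.127 to 0.238). The channel subunit genes *Sec61a1* and *Sec61b* were not called. In ERAD, apart from *Herpud1*, 7 tested members were not called, including *Edem1* and *Edem2*.

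**Figure D1:**
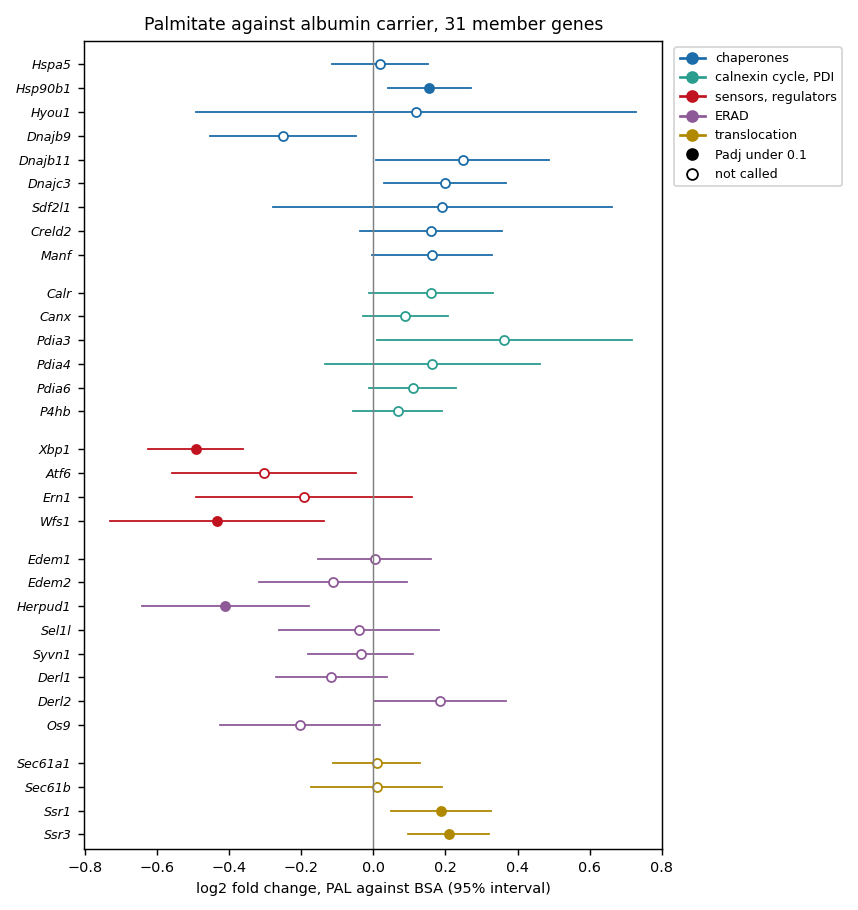
Log2 fold change of the 31 tested members in PAL against BSA on the x axis, one gene per line and coloured by role, with points for DESeq2 estimates, lines for 95% intervals, and filled points for *Padj* under 0.1. The 4 sensors and regulators lie left of 0, with *Xbp1* at -0.49, while 8 of 9 chaperones lie right of 0.

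Of the 10 tested members with an ERSE or ERSE-II match, 1 was called higher (*Hsp90b1*) and 1 lower (*Herpud1*) in PAL against BSA, close to the 6.65% and 7.60% of all genes. Fold changes were above 0 for 8 of the 10, and the median was 0.13. Of the 16 members whose promoter held no match, 9 were above 0, 2 were called higher and 2 lower, and the median was 0.01. No test was made between these groups of members.

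Of 67 other genes of the pathway, in companion lists, DESeq2 called 3 higher and 2 lower in PAL against BSA. Of all genes, 6.65% were called higher and 7.60% lower. Among 17 other ER folding enzymes, the cyclophilin gene *Ppib* rose (0.23 ± 0.060, DESeq2 *Padj* = 0.00293) and the prolyl isomerase gene *Fkbp11* fell (-0.30 ± 0.11, *Padj* = 0.0462). Among 16 other ERAD genes, *Vcp*, which encodes the ATPase that extracts ERAD substrates, rose by 0.33 ± 0.11 (*Padj* = 0.0241) and *Selenos* by 0.18 ± 0.070 (*Padj* = 0.0762). The call of *Fkbp11* was lost without BSA replicate 1, 2 or 3 or PAL replicate 4, that of *Vcp* without BSA replicate 2 or PAL replicate 1, and that of *Selenos* without BSA replicate 1, 2 or 4 or PAL replicate 1, 2 or 3 (*Padj* = 0.116 to 0.232 over these). With replicate number as a block in the DESeq2 fit, *Fkbp11* (*Padj* = 0.162) and *Selenos* (*Padj* = 0.173) were not called. *Fkbp11* was also not called in a fit of all 24 libraries (*Padj* = 0.104). Of 6 genes for ATF6 processing and its relatives, *Creb3l1*, which encodes an ATF6-like membrane-bound factor, fell from 183 to 220.5 normalised counts in BSA to 97.6 to 141 in PAL without overlap (-0.68 ± 0.15, *Padj* = 0.000109). None of 18 other translocation and oligosaccharide transfer genes was called by DESeq2 or edgeR, with 2 at an unadjusted p under 0.05. The PERK branch and integrated stress response list, which holds *Atf4*, *Ddit3* and their targets, also had 0 of 10 called by either tool and 1 at an unadjusted p under 0.05.

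Transfection of control esiRNA into palmitate-treated cells called 2 members in CON against PAL, 1 in each direction, which is 3.23% of the members tested. Of all 12928 genes tested, 1.59% were called higher and 0.920% lower. *Hspa5* rose to 2852, 2737, 2955 and 2887 normalised counts in CON from 2301, 2532, 2799 and 2313 in PAL (0.20 ± 0.064, DESeq2 *Padj* = 0.0845). The groups overlapped in 1 PAL library, and the call was lost without PAL replicate 1 or 4 or any 1 CON library (*Padj* = 0.136 to 0.386). *Ssr3* fell to between 1949 and 2046 in CON, below all PAL libraries (-0.19 ± 0.052, *Padj* = 0.0184), and lost its call without PAL replicate 1 (*Padj* = 0.115) or CON replicate 2 (*Padj* = 0.166). CON thus lay within the BSA range of *Ssr3*, a comparison that was not tested. Of the hepatocyte markers, *Apoe* and *Alb* rose and *Krt18* fell in this comparison, and 9 of 9 tested interferon-induced genes rose. The part of either list was not tested. *Trib3*, a stress pseudokinase gene, was the only called gene of the PERK list, and it fell.

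The summed level of 10 interferon-induced genes was 331 to 388 normalised counts in PAL and 907 to 7143 in CON. BMAL1 libraries held between 965 and 1497, CHREBP libraries between 20817 and 42588, and BOTH libraries between 40940 and 63217. This list rose in CHREBP and BOTH against CON, with 10 of 10 genes called by DESeq2 in each, and fell in BMAL1 against CON with 6 of 10. Its part in the results of the esiRNA groups that follow was not tested.

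*Bmal1* esiRNA alone called none of the 31 members in DESeq2 or edgeR, where DESeq2 gave no *Padj* to 2 of them, *Hyou1* and *Sdf2l1*. Of all 13883 genes tested, 0.166% were called higher and 0.324% lower. Only *Os9* had an unadjusted p under 0.05. Fold changes of the members ran from -0.18 for *Pdia3* to 0.23 for *Os9*, with a median of -0.05 against 0.00 for all genes, and 23 of 31 were below 0. The median distance from an estimate to the end of its 95% interval was 0.18, and the SE of a single member ran from 0.055 to 0.315. *Hspa5* held 2752, 2517, 2684 and 2494 normalised counts in BMAL1, which overlapped CON (-0.13 ± 0.088, DESeq2 *Padj* = 0.839). *Hsp90b1* ran from 3361 to 3645, below the CON range of 3789 to 3844, without being called (*Padj* = 0.86). CHREBP, at 3524 to 3604, also lay below CON without being called. The CON libraries of *Hsp90b1* spanned a narrower range than those of any other group. Of the 9 tested hepatocyte markers, *Ttr* alone was called in BMAL1 against CON. It rose (0.46 ± 0.072, DESeq2 *Padj* = 5.83e-07), and its part was not tested.

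*Chrebp* esiRNA called 1 member, *Syvn1*, which rose. That is 3.23% of the members, where 2.65% of all genes were called higher and 0.771% lower in CHREBP against CON. *Syvn1* (ENSMUSG00000024807, chr19:6046576-6053712, plus strand) encodes HRD1, the ubiquitin ligase at the centre of ERAD, and its promoter held an ERSE at bases -44 to -26 from the start site. It held 930.0, 873, 855 and 929.8 normalised counts in CON and 1207, 1115, 1091 and 1058 in CHREBP. Every CHREBP library lay above every CON library, and the log2 fold change was 0.32 ± 0.072 (DESeq2 *Padj* = 0.00073), a level 24.5% higher.

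*Syvn1* rose with both esiRNAs as well. BOTH held 1146, 1313, 1249.6 and 1250.0 (0.47 ± 0.072 against CON, *Padj* = 5.53e-09), which is 38.2% above CON. BMAL1 held 854, 842, 979.6 and 962, overlapping CON, and BSA (838 to 953) and PAL (792 to 934) lay in the same range. CHREBP was also above BMAL1 at the same dose of 100 nM (0.29 ± 0.073, DESeq2 *Padj* = 0.00306), as was BOTH at 200 nM (0.44 ± 0.072, *Padj* = 4.79e-08). BOTH and CHREBP overlapped (0.15 ± 0.071, *Padj* = 0.506), and the interaction, which is BOTH minus CHREBP less BMAL1 minus CON, was 0.13 ± 0.10 (*Padj* = 0.818). The 4 calls of *Syvn1* held without any single library. *Syvn1* overlaps *Mrpl49* on the opposite strand, and whether counting used strand is not given in the sources used here. *Mrpl49* itself had fold changes of -0.04 ± 0.098 in CHREBP and 0.00 ± 0.098 in BOTH against CON.

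**Figure D2:**
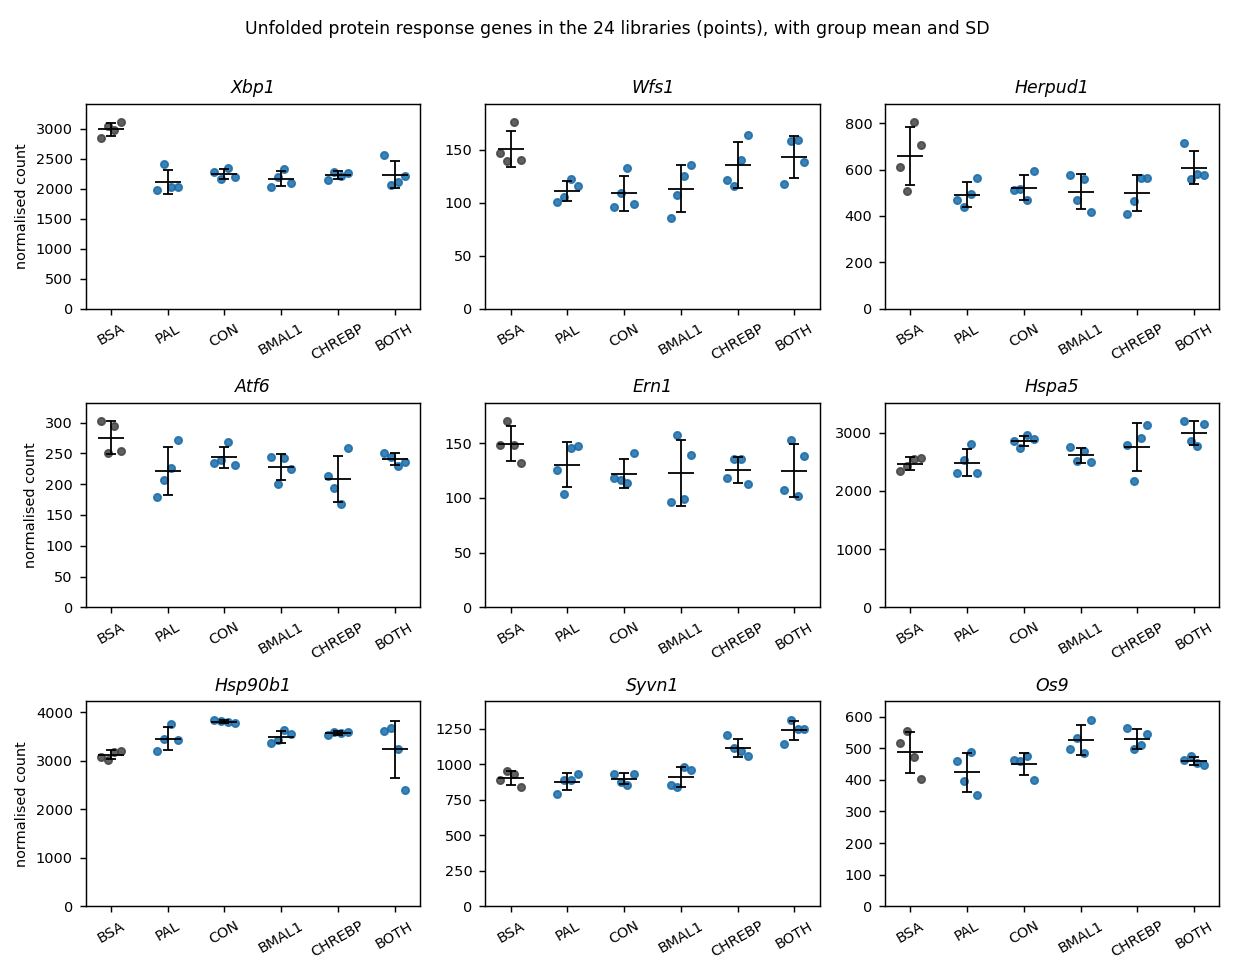
Normalised counts (y axes, from 0) of 9 members in the 6 groups (x axes), with 1 point per library, grey for BSA and blue for groups with palmitate, and bars for group means with SD of 4 libraries. *Xbp1* is at least 2841 in BSA and at most 2559 elsewhere, *Syvn1* stands higher in CHREBP and BOTH, and 1 BOTH library of *Hsp90b1* lies at 2406.

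Beside *Syvn1*, BOTH against CON called *Derl1* higher and *Hsp90b1* and *P4hb* lower, which with *Syvn1* makes 6.45% of the members in each direction. Of all genes, 5.99% were called higher and 3.75% lower. In the same comparison 3 of 9 hepatocyte markers fell (*Apoe*, *Hnf4a* and *Trf*), and their part was not tested. Without BOTH replicate 4, *Syvn1*, *Derl1* and *P4hb* were the 3 members called. *Derl1*, *Hsp90b1* and *P4hb* are named after their values were seen, since their fold changes were below 0.32 in size. *Derl1*, which encodes a channel component of ERAD, ran from 1538 to 1629 in CON and from 1667 to 1874 in BOTH without overlap (0.17 ± 0.062, DESeq2 *Padj* = 0.0655). *P4hb*, which encodes protein disulfide isomerase, ran from 5454 to 5721 in CON and from 4856 to 5228 in BOTH without overlap (-0.15 ± 0.055, *Padj* = 0.0627). *Hsp90b1* held 3614, 3679.6, 3252 and 2406 in BOTH, all below CON (-0.24 ± 0.092, *Padj* = 0.0975).

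These 3 calls did not hold without every library. *Hsp90b1* was at -0.12 without BOTH replicate 4 (*Padj* = 0.157), and its call was also lost without BOTH replicate 3 or any 1 CON library (*Padj* = 0.156 to 0.184). *Derl1* lost its call without CON replicate 1, 2 or 3 or BOTH replicate 1 or 3 (*Padj* = 0.109 to 0.199), and *P4hb* lost its call without CON replicate 1, 3 or 4 or BOTH replicate 3 (*Padj* = 0.147 to 0.195). With edgeR, or with DESeq2 fitted to BOTH and CON alone, *Syvn1* was the 1 member called. *Hspa5* was not called in CHREBP (2794, 2164, 2906 and 3132, -0.06 ± 0.088) or BOTH (3196, 2853, 2772 and 3140.5, 0.06 ± 0.088) against CON, with DESeq2 *Padj* of 0.919 and 0.8.

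Of the sensors and regulators in these groups, *Atf6* and *Wfs1* came nearest to the threshold. *Atf6* held 234, 239, 269 and 232 normalised counts in CON and 213, 194, 168 and 258 in CHREBP (-0.24 ± 0.12, DESeq2 *Padj* = 0.423), with a *Padj* of 0.0936 when CHREBP replicate 4, its highest library, was left out. BMAL1 held 244, 199.7, 243 and 224 of *Atf6* and BOTH 251, 245, 229.8 and 236. *Wfs1* held 96.0, 109, 132 and 98.5 in CON, 85.5, 107, 125 and 135 in BMAL1, 122, 115, 140.4 and 164 in CHREBP and 117, 158, 159 and 138 in BOTH. In BOTH its fold change was 0.39 ± 0.16 (*Padj* = 0.155), and *Padj* was 0.0744 without CON replicate 3, 0.0726 without BOTH replicate 1 and 0.0883 in a fit of all 24 libraries.

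*Herpud1* and *Ern1* showed no called difference among the esiRNA groups. *Herpud1* held 511, 516, 469.7 and 595 in CON, 578, 468, 559 and 417 in BMAL1, 406, 466, 562 and 565 in CHREBP and 716, 559, 583 and 578 in BOTH (0.22 ± 0.12 in BOTH against CON, DESeq2 *Padj* = 0.343). *Ern1* held 118, 116, 114 and 141 in CON, 96.4, 157, 98.6 and 139 in BMAL1, 118, 136, 135 and 113 in CHREBP and 107, 153, 102 and 138 in BOTH. All 4 groups of *Ern1* overlapped. In the likelihood ratio test over the 4 esiRNA groups, 3 members were called, *Syvn1* (*Padj* = 2.9e-11), *Derl1* (*Padj* = 0.0156) and *Os9* (*Padj* = 0.059), or 9.68% of the members where 9.92% of all genes were called. *Os9* was not called in this test with edgeR, with the replicate block, or without CON replicate 1, 2 or 4, BMAL1 replicate 2 or 4, CHREBP replicate 1 or 4, or BOTH replicate 3, and *Derl1* was not called without BOTH replicate 3.

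**Figure D3:**
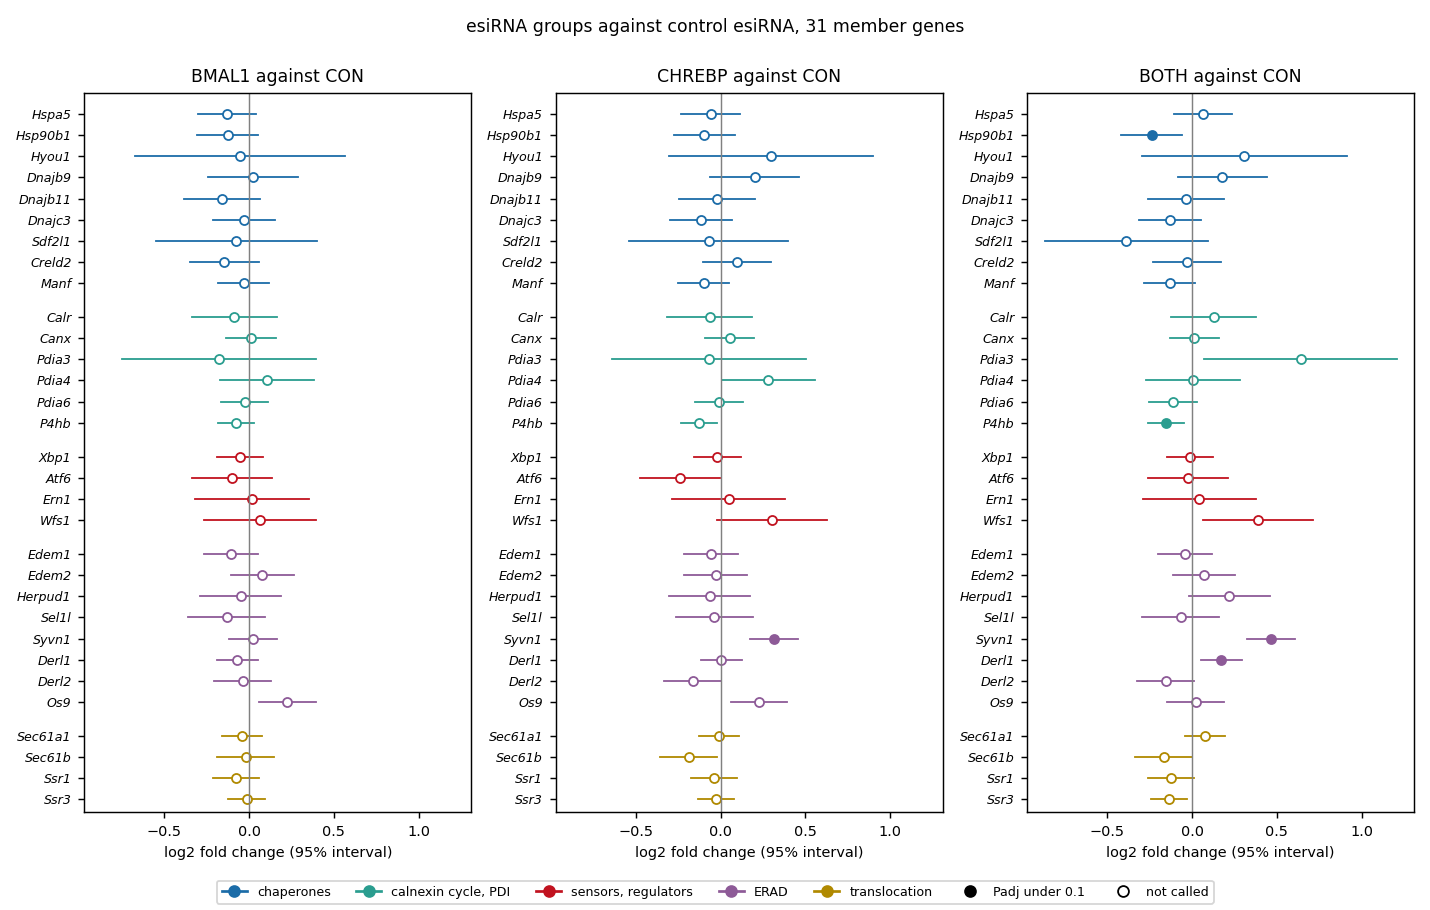
Log2 fold changes of the 31 tested members in BMAL1, CHREBP and BOTH against CON (x axes), one gene per line and coloured by role, with 95% intervals as lines and filled points for DESeq2 *Padj* under 0.1. No point is filled in BMAL1, *Syvn1* alone is filled in CHREBP at 0.32, and *Syvn1*, *Derl1*, *Hsp90b1* and *P4hb* are filled in BOTH.

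Adding 1 esiRNA to the other gave few further calls. BOTH against CHREBP called 0 of 31 members in DESeq2 and in edgeR, with 7 at an unadjusted p under 0.05 and no DESeq2 *Padj* for *Hyou1*, where 0.843% of all genes were called higher and 0.151% lower. BOTH against BMAL1 called *Syvn1*, *Derl1* and *Pdia3* higher, or 9.68% of the members, and none lower, where 6.35% of all genes were called higher and 4.08% lower. CHREBP against BMAL1 called *Syvn1* higher, or 3.23%, where 2.90% of all genes were called higher and 0.915% lower. Hepatocyte markers were called lower in both comparisons, *Apoe* and *Ttr* in CHREBP and *Apoe*, *Hnf4a*, *Trf* and *Ttr* in BOTH against BMAL1. Of these, *Ttr* was higher in BMAL1 than in CON. It was not called in CHREBP (-0.14, DESeq2 *Padj* = 0.438) or BOTH (-0.03, *Padj* = 0.909) against CON. The part of these markers was not tested. *Derl1* ran from 1439.6 to 1636 in BMAL1 and from 1667 to 1874 in BOTH (0.24 ± 0.062, *Padj* = 0.00251), and that call held without any single library.

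*Pdia3*, which encodes the glycoprotein disulfide isomerase ERp57, held 133, 137, 139.8 and 155 normalised counts in BMAL1 and 158, 189, 268 and 383 in BOTH. The groups did not overlap, but BOTH spanned a wide range, and CON held 225, 140.3, 131 and 144. The log2 fold change of BOTH against BMAL1 was 0.82 ± 0.29 (DESeq2 *Padj* = 0.0549), and the call was lost without BMAL1 replicate 1, 2 or 3 or BOTH replicate 3 (*Padj* = 0.134 to 0.146). Without BOTH replicate 4 the fold change was 0.53.

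*Hyou1* had no *Padj* for the interaction either. *Os9* was the 1 member called for the interaction, which cannot be told apart from esiRNA dose, 3.23% of the members, and it was lower, where 1.20% of all genes were called higher and 0.267% lower. It encodes a lectin that hands misfolded glycoproteins to HRD1. It held 464, 459, 477 and 401 in CON, 498, 534, 486 and 590.3 in BMAL1, 565, 499, 510.5 and 547 in CHREBP and 462, 475, 455 and 446 in BOTH. Each group at 100 nM (BMAL1, CHREBP) lay above CON in all libraries, and BOTH, at 200 nM like CON, lay within the CON range. The single differences were 0.23 ± 0.085 in both BMAL1 and CHREBP against CON and were not called (DESeq2 *Padj* = 0.357 and 0.15), while the interaction was -0.43 ± 0.12 (*Padj* = 0.0335). It was lost without BMAL1 replicate 4 (-0.37, *Padj* = 0.149) and in edgeR (*Padj* = 0.102).

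Genes of the PERK branch and integrated stress response list were called in CHREBP and BOTH. Of its 10 genes, 4 rose in CHREBP against CON, 5 in BOTH against CON and 7 in BOTH against BMAL1 by DESeq2, and none fell in these. By edgeR the counts were 3, 5 and 6, and the shares of all genes called higher by DESeq2 were 2.65%, 5.99% and 6.35%. CHREBP against BMAL1, at the same dose, had 3 higher by DESeq2 and 2 by edgeR, where 2.90% of all genes were called higher. BOTH against CHREBP had 1 higher by DESeq2 and 0 by edgeR, where 0.843% of all genes were called higher. In BMAL1 against CON, DESeq2 and edgeR called 0 of 10, with 2 at an unadjusted p under 0.05. The median fold change of the list in BOTH against CON was 0.36, where that of the 31 members was -0.01 and that of all genes -0.01. *Atf3*, a stress-induced repressor gene, held 488 to 555 normalised counts in CON and 833 to 1158 in BOTH (0.90 ± 0.13, *Padj* = 5.62e-10). *Ddit3*, which encodes the ER stress factor CHOP, held 109 to 128 in CON and 189 to 248 in BOTH (0.85 ± 0.13, *Padj* = 1.39e-08). *Chac1*, which encodes a glutathione-degrading target of this branch, held 161 to 196 in CON and 229 to 295 in BOTH (0.60 ± 0.14, *Padj* = 0.000476). In all 3 genes the BOTH libraries lay above every CON library.

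Among the 6 genes for ATF6 processing and relatives, *Creb3* rose in BOTH against CON (0.46 ± 0.11, DESeq2 *Padj* = 0.000694). *Creb3l2* (-0.38 ± 0.079, *Padj* = 5.07e-05) and *Mbtps2*, which encodes the protease that makes the second cut of ATF6 (-0.32 ± 0.12, *Padj* = 0.0938), fell. In the other companion lists, *Lman1*, a cargo receptor gene, fell by 0.29 ± 0.093 (*Padj* = 0.0265) and *Rnf5*, an ERAD ligase gene, fell by 0.39 ± 0.15 (*Padj* = 0.0955), both with overlap between BOTH and CON. The call of *Lman1* was lost without CON replicate 2 (*Padj* = 0.1), that of *Rnf5* without CON replicate 2, 3 or 4 or BOTH replicate 2 or 3, and that of *Mbtps2* without any 1 CON library or BOTH replicate 1 or 4 (*Padj* = 0.116 to 0.305 over both). With DESeq2 fitted to BOTH and CON alone, *Lman1*, *Rnf5* and *Mbtps2* lost their calls (*Padj* = 0.112, 0.137 and 0.205). *Rnf5* and *Mbtps2* also lost them with edgeR (*Padj* = 0.13 and 0.11) and with the replicate block (*Padj* = 0.125 and 0.138). *Rnf5* lost its call with no count filter as well (*Padj* = 0.107). No translocation or oligosaccharide transfer gene of the 18 was called in that comparison by DESeq2 or edgeR, with 4 at an unadjusted p under 0.05 in DESeq2.

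**Figure D4:**
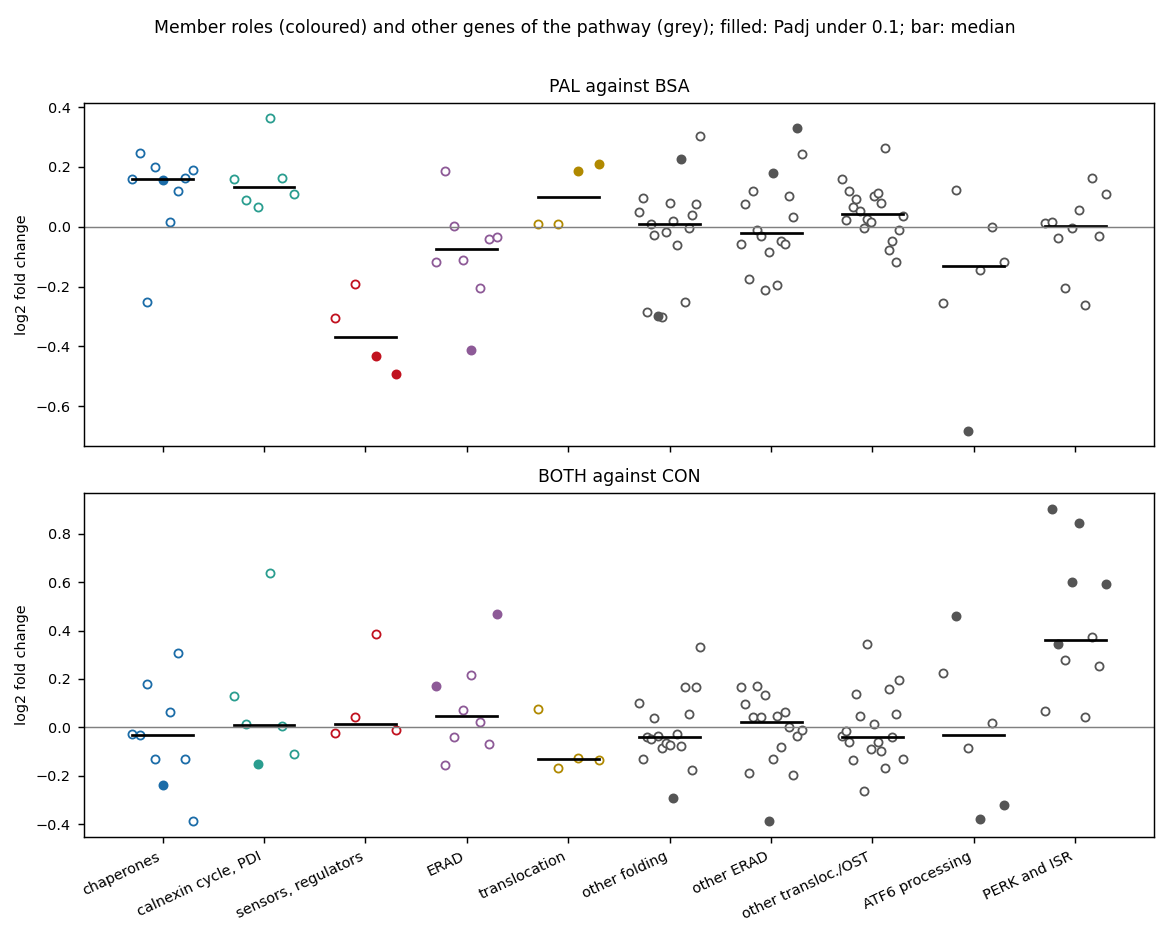
Log2 fold changes (y axes) in PAL against BSA (upper panel) and BOTH against CON (lower panel), 1 point per gene, for the 5 roles of the members (coloured) and the 5 companion lists (grey), with filled points for DESeq2 *Padj* under 0.1 and bars for list medians. In the upper panel the sensors and regulators have the lowest median, -0.37, and in the lower panel the PERK and integrated stress response list has the highest, 0.36.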

How the data were processed

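BRB-seq libraries of AML-12 cells were sequenced. The submitters' processing notes name STAR, HTSeq, featureCounts and the build mm10. Tool versions, the annotation, strand use and the handling of molecular identifiers are not given in the sources used here. The authors deposited raw counts for 55487 genes in 24 libraries, neither normalised nor pooled, and no column was left unused (0 columns). The 5 summary lines stayed out of library sizes. Reads with no feature were 5.11% to 6.47% and unaligned reads 24.9% to 28.0% of a library. Floors cover counting error only, while 95% intervals of fold changes (DESeq2 estimate and SE) include the spread between libraries. The 36 pairs of replicates differed by more than counting noise (chi-square per degree of freedom 2.70 to 23.1), which does not tell whether their cultures were separate. Each library was counted as 1 replicate.

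Groups came from the sample titles. DESeq2 1.42.0 in R 4.3.3 was run after removing genes whose counts summed to under 25, with Benjamini-Hochberg *Padj* under 0.1, as in the methods of the study. The independent filtering of DESeq2 gave no *Padj* to some genes of low counts, which are counted among genes tested and not as called. Each palmitate comparison without silencing (PAL/BSA, CON/PAL) was a fit of 8 libraries (Wald test), and the 16 esiRNA libraries together (Wald and likelihood ratio tests). Normalised counts are counts divided by size factors of all 24 libraries. The edgeR 4.0.16 quasi-likelihood test, TMM factors, no count filter, a replicate block, other library sets and leaving out each library were alternatives. Members and gene lists were chosen with earlier results of these data known. Values in every library are given for members called in PAL/BSA, CON/PAL, BMAL1/CON, CHREBP/CON or BOTH/CON with a fold change of at least 0.32 in size and a mean of at least 20 normalised counts, and for *Hspa5*, *Xbp1*, *Atf6* and *Ern1*. From each companion list, up to 3 called genes with the largest fold changes in PAL/BSA or BOTH/CON are named. *Trib3* and further members were named after their values were seen. Motifs were searched in RefSeq promoters of GRCm38.p6.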

Additional observations from a re-analysis of the deposited data

Results flagged for a closer look

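In groups of 4, a library stood apart from the other three of its group for 8 of the 186 combinations of member and group that were checked, by the ratio of its gap to the group's range (Dixon's test at the 95% level). Chance gives about 1 in 20. The values were *Pdia3* at 225 normalised counts in CON replicate 1 (others 131 to 144), *P4hb* at 5454 in CON replicate 2 (others 5684 to 5721) and *Xbp1* at 2408 in PAL replicate 2 (others 1980.2 to 2035). *Edem2* stood at 521 in BSA replicate 1 (others 410.0 to 419) and at 383 in BOTH replicate 4 (others 422 to 424). *Herpud1* stood at 716 in BOTH replicate 1 (others 559 to 583), *Derl1* at 1867 in PAL replicate 1 (others 1437 to 1485) and *Sec61b* at 605 in CON replicate 3 (others 501 to 517). One difference between effects was past its test, the interaction of *Os9* at -0.43 on the log2 scale, a contrast that is also that of 200 nM with 100 nM esiRNA, so silencing and dose cannot be told apart.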

How the results depend on the processing

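Of the 18 called fold changes of members, 8 stayed called under every alternative. Recomputed under each alternative, they gave 251 values, of which 57 lost the call and 0 changed sign. The 8 were *Xbp1*, *Ssr3* and *Herpud1* in PAL against BSA, *Syvn1* in its 4 comparisons and *Derl1* in BOTH against BMAL1. *Wfs1* in PAL against BSA was not called with the replicate block (*Padj* = 0.154). Of 13 named companion fold changes, 7 stayed called throughout and 0 changed sign. Members called went from 6 to 3 in PAL against BSA with the replicate block, from 2 in CON against PAL to 1 with edgeR, 1 with all 24 libraries and 0 with the replicate block, and from 4 in BOTH against CON to 1 with edgeR and 1 with the 2 groups only, and to 6 with no filter, 5 with the replicate block and 5 with all 24 libraries. The interaction went from 1 to 0 with edgeR, and BOTH against CHREBP from 0 to 1 (*Pdia3*) with the replicate block. Without 1 library, members called ran from 4 to 7 in PAL against BSA, 0 to 3 in CON against PAL, 1 to 2 in CHREBP against CON, 1 to 6 in BOTH against CON, 0 to 1 in BOTH against CHREBP, 0 to 2 for the interaction and 1 to 4 for any difference among esiRNA groups. Uncalled fold changes were followed only in selected comparisons of *Hspa5*, *Xbp1*, *Atf6*, *Ern1*, *Wfs1*, *Herpud1*, *Dnajb9*, *Os9* and *Syvn1*. Those that changed sign without 1 library were *Hspa5* (-0.0435 to 0.0525 in PAL against BSA, -0.13 to 0.0409 in CHREBP against CON) and *Xbp1* (-0.0356 to 0.0041 in CHREBP and -0.0854 to 0.0271 in BOTH against CON). Over all genes, calls fell from 68 in BMAL1 against CON to 14 with edgeR and 22 with the replicate block and rose to 144 with the 2 groups only. They fell from 1828 to 1188 in PAL against BSA and from 325 to 186 in CON against PAL with the block, from 138 to 53 (edgeR) and 80 (2 groups only) in BOTH against CHREBP, and from 204 to 122 (edgeR) for the interaction. Without 1 library they ran from 180 to 343 in CON against PAL, 16 to 107 in BMAL1 against CON, 350 to 513 in CHREBP against BMAL1 (530 with all libraries), 56 to 217 in BOTH against CHREBP and 104 to 291 for the interaction, so the shares of all genes called in these comparisons move as well. Where calls moved, the cause was not tested. Same-numbered libraries are not stated to share a culture. Correlations of their deviations from the group means ran from -0.22 to 0.27, which cannot show whether cultures were shared. The main fits did not pair libraries, and the replicate block was an alternative. Depth limits *Hyou1* and *Sdf2l1* most, with 20 to 60 and 29 to 97 counts per library.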
